A study of Mus musculus with 8 samples.

Results

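Cells carry proteins that keep their own DNA and RNA from being read as foreign, and sensors that start an alarm when this fails. The 10 genes described here were chosen by name, with no measured value in the rule. They are Adar, Eif2ak2, Zbp1, Samhd1, Trex1, Rnaseh2b, Rnaseh2c, Skiv2l, the cGAS gene (listed as Mb21d1) and the STING gene (listed as Tmem173), 10 of the 34478 genes of the table. RNA-seq was performed in 4 primary murine cell lines of pancreatic ductal adenocarcinoma (PDAC), numbered #1, #3, #5 and #10. Each line gave 1 library after 48 h with trametinib, an inhibitor of the kinase MEK, at the IC50 of that line, and 1 library with the solvent DMSO. All lines, and thus both treatment groups, came from tumors of mice that carried Ptf1awt/Cre, in which the pancreatic gene Ptf1a drives Cre, together with Trp53loxP/loxP, which Cre deletes. A line stands for the cells grown out of a tumor, and with 1 library per line and treatment no spread within a line can be given. The treatment groups are called DMSO and MEKi.

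Double-stranded RNA made by the cell itself is edited by ADAR1, the product of Adar, which keeps it from activating the sensor MDA5 (Ifih1), the kinase PKR (Eif2ak2) and the Z-nucleic acid receptor ZBP1, while the cytosolic helicase SKIV2L feeds RNA to the exosome for decay. On the DNA side, RNase H2 removes ribonucleotides and RNA:DNA hybrids from the genome, SAMHD1 hydrolyses dNTPs, and the exonuclease TREX1 degrades DNA in the cytosol, before cGAS can bind it and signal through STING. Inherited loss of ADAR1, of SAMHD1, of TREX1 or of RNase H2 subunits causes Aicardi-Goutières syndrome, an interferon-driven disease, and several of these genes are themselves induced by interferon.

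Library totals were 30680091 to 36385719 normalized counts. The step between low values corresponds to a depth of about 29300000 to 45900000 reads, and 3 reads, used as a floor, to 2.33 to 3.72 normalized counts. Dusp6, a feedback gene of the MAPK pathway that checks for MEK inhibition, fell from 7011 ± 2055 to 1310 ± 670 normalized counts (SD, n = 4 lines), for a log2 fold change of -2.51 ± 0.14 (SE, limma adjusted p = 0.00012), and was lower in 4 of 4 lines. Trp53 was read at 196 to 355 normalized counts in the libraries; the deleted exons cannot be told from a value per gene, so this does not check the label. Of the epithelial markers, Cdh1, Krt8, Krt18 and Krt19 stood at 17761 normalized counts or higher in every library, whereas Epcam was listed at 0 in both libraries of lines #1, #5 and #10. The other listed markers reached lower values. In DMSO and MEKi, Krt7 stood at 13352 to 45211 and 9734.5 to 34401, Muc1 at 4642 to 14353 and 1327 to 10571, and Sox9 at 295 to 1246 and 65.5 to 828. Cldn7 stood at 72.1 to 963 and 11.3 to 348, and Cldn4 at 12.4 to 244 and 671 to 1461. The 10 epithelial markers summed to 231130 to 353590 in DMSO and to 120380 to 232670 in MEKi, the 8 leukocyte markers in the table to 158 to 248 and 245 to 523, the 8 fibroblast markers to 94.9 to 366 and 440 to 1258, and the 4 endothelial markers to 30.9 to 54.6 and 62.7 to 831. Single genes carried much of these rises, namely Csf1r, Col1a1 and Tek with log2 fold changes of 2.83, 3.60 and 3.77. Of the other leukocyte markers, Ptprc stood at 4.05 to 17.2 in the libraries. Cd68 stood at 135 to 188 in DMSO and 130 to 228 in MEKi and did not pass (0.23, limma adjusted p = 0.47). The part of such markers in the results below was not tested.

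With trametinib, 9 of the 10 genes were high enough to be tested, and of these none rose, 3 fell and 6 did not pass. Among all 15888 genes tested, 27.3% were called higher and 25.6% lower, so 3 of 9 is near the share of the whole table. The split moves with the scaling, from 4341 higher and 4075 lower to 5333 and 3285 with libraries rescaled to equal totals and to 3779 and 4233 with quantile normalization. The 3 genes that fell were the cGAS gene and the RNase H2 subunits Rnaseh2b and Rnaseh2c. For some genes below, the DMSO and MEKi values did not overlap. How common this was among all genes tested was not computed, so it only describes the values of these genes. The RNA guards Adar and Skiv2l had 95% intervals between -0.21 and 0.26 on the log2 scale, and Zbp1 was too low to be tested. The median log2 fold change of the 9 tested genes was -0.08, against 0.07 for all genes tested, of which the quartiles were -0.45 and 0.63. Log2 fold changes are on the log2(normalized count + 1) scale, adjusted p-values are from limma over all genes tested, and p-values measure only the spread between these 4 lines. In bulk RNA, fewer cells of a kind and less RNA per cell cannot be told apart.

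**Figure D1:**
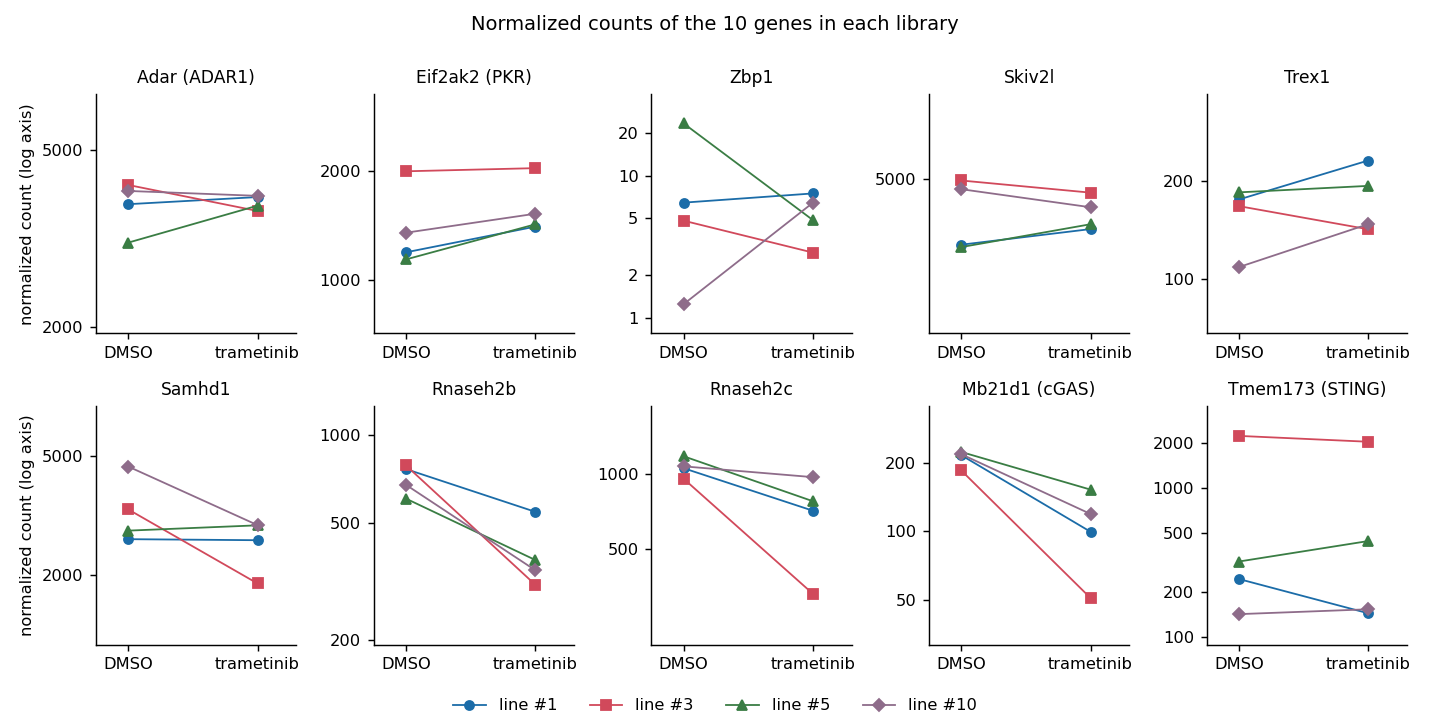
Normalized counts (log axis) of the 10 genes in each library, with DMSO on the left and trametinib on the right of each panel and a line joining the 2 libraries of a cell line. Rnaseh2b and Mb21d1 (cGAS) fell in 4 of 4 lines with no overlap between the treatments, and the share of all genes tested without overlap was not computed. Tmem173 (STING) stood above 2000 in line #3 only, under both treatments.

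Adar (chr3:89715022-89753446 of GRCm38, plus strand) encodes the editing enzyme ADAR1. It was read at 3780, 4176, 3097 and 4048 normalized counts in the DMSO libraries of lines #1, #3, #5 and #10, and at 3922, 3649, 3751 and 3947 in the MEKi libraries. The groups overlapped, and Adar was higher in 2 lines and lower in 2. Its log2 fold change was 0.02 ± 0.10 (SE, adjusted p = 0.85) with a 95% interval of -0.21 to 0.26. The 4 MEKi values lay closer together (SD 142) than the 4 DMSO values (SD 481). A value per gene adds up the constitutive p110 form of ADAR1 and the interferon-induced p150 form, so a shift between them would not be seen here.

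Eif2ak2 (chr17:78852564-78882573, minus strand) encodes PKR, which binds double-stranded RNA and halts translation by phosphorylating eIF2alpha. Its normalized counts were 1192, 1997, 1140 and 1351 in DMSO and 1404, 2037, 1425 and 1524 in MEKi, in the order of lines #1, #3, #5 and #10. Every line was higher with trametinib, but by little, with log2 changes of 0.24, 0.03, 0.32 and 0.17, and the groups overlapped because line #3 was high under both treatments. The log2 fold change was 0.19 ± 0.091 (SE) and did not pass (adjusted p = 0.12). Under the deposited scaling, the upper end of its 95% interval of -0.03 to 0.41 is a 1.33-fold rise. It did pass when libraries were rescaled to equal totals (0.32, adjusted p = 0.025) and without line #3 (0.24, adjusted p = 0.048). The RefSeq promoter of Eif2ak2 (GRCm38.p6) is shown because it holds a match to the interferon-stimulated response element (ISRE), searched as GAAANNGAAA on both strands with N for any base. The match, in capitals, lies at bases 19 to 28 after the transcription start, and the stretch runs from 30 bases before the start to 30 after it (chr17:78882543-78882602, minus strand).
Eif2ak2: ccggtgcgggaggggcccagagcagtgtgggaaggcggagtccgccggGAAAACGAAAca
Of 32851 RefSeq promoter windows of the same length, 3.44% held this motif. Windows of 6 of the 10 genes were examined, and Eif2ak2 was the only one of these with a match. A match is a description of letters and no evidence of a bound factor.

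Zbp1 (chr2:173206612-173218923, minus strand) encodes the sensor of Z-form RNA and DNA that can trigger necroptosis through RIPK3. It was read at few counts, at 6.46, 4.83, 23.2 and 1.25 normalized counts in DMSO and 7.49, 2.88, 4.87 and 6.45 in MEKi. These correspond to about 8.3, 4.6, 18.7 and 1.3 reads and to about 7.7, 3.1, 6.1 and 6.7 reads, so that the DMSO library of line #10 lay under the floor of 3 reads and the MEKi library of line #3 at it. With a mean of 7.18, Zbp1 did not reach the filter and was not tested with the other genes. Its changes went both ways, from -2.04 on the log2 scale in line #5 to 1.73 in line #10, and a fit without the filter gave -0.18 ± 0.65 (SE, adjusted p = 0.87) with an interval of -1.72 to 1.36. A change of Zbp1 was thus not detectable at this depth.

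Skiv2l (chr17:34839228-34850210, minus strand) encodes the helicase of the cytosolic Ski complex, whose other subunits are encoded by Ttc37 and Wdr61. Normalized counts were 3503, 4971, 3457 and 4741 in DMSO and 3814, 4652, 3916 and 4296 in MEKi. Lines #1 and #5 were a little higher and lines #3 and #10 a little lower with trametinib, and the groups overlapped. The log2 fold change was 0.02 ± 0.091 (SE, adjusted p = 0.89), with an interval of -0.20 to 0.23. The partners did not pass either, with log2 fold changes of -0.11 for Ttc37 (adjusted p = 0.39) and -0.31 for Wdr61 (adjusted p = 0.055, lower in 4 of 4 lines). Wdr61 passed with a filter at a mean of 50 and when each library was centred on its median. Per kb of exon, Skiv2l was read at 837 ± 161 in DMSO (SD, n = 4 lines), Wdr61 at 300.1 ± 61.3 and Ttc37 at 140.0 ± 15.1.

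RNase H2 is a complex of the catalytic subunit encoded by Rnaseh2a and the accessory subunits encoded by Rnaseh2b and Rnaseh2c, and all of its subunits were lower with trametinib. Rnaseh2b (chr14:62292589-62372992, plus strand) was read at 765, 787, 606 and 676 normalized counts in DMSO and at 547, 308, 374 and 346 in MEKi, again for lines #1, #3, #5 and #10. The highest MEKi library, of line #1, lay under the lowest DMSO library, of line #5. The log2 fold change was -0.87 ± 0.16 (SE, adjusted p = 0.0044, lower in 4 of 4 lines), which leaves 54.6% of the DMSO level, with a 95% interval of 0.42 to 0.71 times that level.

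Rnaseh2c (chr19:5601873-5607019, plus strand) was read at 1052, 955, 1176 and 1071 normalized counts in DMSO and at 710, 329, 775 and 969 in MEKi. All lines fell, but unevenly, from a log2 change of -1.54 in line #3 to -0.14 in line #10, and the groups overlapped since line #10 with trametinib stood above line #3 with DMSO. The log2 fold change was -0.71 ± 0.22 (SE, adjusted p = 0.030). This call was lost in 5 of 14 alternatives, among them libraries of equal totals (-0.58, adjusted p = 0.058) and the fits without line #1 (adjusted p = 0.071) or line #5 (adjusted p = 0.073). Without the cell line block the adjusted p was 0.11.

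Rnaseh2a, the catalytic subunit, was read at 2080, 1604, 1688 and 1584 normalized counts in DMSO and at 1429, 789.6, 1111 and 1131 in MEKi. Every MEKi library lay under every DMSO library, and the log2 fold change was -0.66 ± 0.12 (SE, adjusted p = 0.0034). Per kb of exon the DMSO levels were 496 ± 66.1 for Rnaseh2a, 113 ± 13.4 for Rnaseh2b and 620.1 ± 52.8 for Rnaseh2c (SD, n = 4 lines), so Rnaseh2b was the lowest of the subunit genes, with no overlap of ranges. The exons of Rnaseh2b in the annotation add up to 6.24 kb against 1.72 kb for Rnaseh2c and include those of all its transcripts, which lowers its value per kb. The promoter window of Rnaseh2a is shown because it holds a match to the E2F motif, searched as TTTNNCGC on both strands, at bases 20 to 27 after the start (capitals, read on the reverse strand). The stretch runs from 30 bases before to 30 after the start (chr8:84966047-84966106 of GRCm38.p6, minus strand).
Rnaseh2a: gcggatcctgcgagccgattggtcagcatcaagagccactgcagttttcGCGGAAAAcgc
It overlaps a match to the interferon-gamma-activated site (GAS), searched as TTCNNNGAA, at bases 17 to 25. Of all promoter windows, 5.17% held the E2F motif and 8.30% the GAS motif. Rnaseh2c had neither in its window.

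Samhd1 (chr2:157097533-157135265, minus strand) encodes a dNTP hydrolase that limits the supply of DNA precursors and is held in check in cycling cells by CDK phosphorylation. Normalized counts were 2635, 3314, 2814 and 4611 in DMSO and 2614, 1873, 2932 and 2936 in MEKi. The lines split, with log2 changes of -0.82 in line #3 and -0.65 in line #10 and of -0.01 and 0.06 in lines #1 and #5. The log2 fold change of -0.36 ± 0.17 (SE) did not pass (adjusted p = 0.11), and its interval ran from -0.75 to 0.04. It passed only when each library was centred on its median (-0.42, adjusted p = 0.046).

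Trex1 (chr9:109057933-109059734, minus strand) encodes the exonuclease that clears cytosolic DNA. It was read at 176, 168, 185 and 109 normalized counts in DMSO and at 232, 142, 194 and 148 in MEKi. Lines #1, #5 and #10 were higher and line #3 was lower, the groups overlapped, and the log2 fold change was 0.17 ± 0.18 (SE, adjusted p = 0.47). The 95% interval was 0.83 to 1.51 times the DMSO level. Exons of Trex1 overlap those of Atrip on the same strand, and Atrip fell (log2 fold change -0.76, adjusted p = 0.022), so reads of the shared exons may have been split between them. For the exons that Adar, Eif2ak2, Rnaseh2b, Rnaseh2c, Skiv2l and the cGAS gene share with a gene on the other strand, the libraries mark the strand, but its use in counting is not given in the sources used here. Among these neighbors only Chrnb2, opposite Adar, passed (0.91, adjusted p = 0.024), at 9.46 to 84.6 normalized counts.

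The cGAS gene (chr9:78430526-78443237, minus strand) encodes the enzyme that makes cGAMP when it binds double-stranded DNA, and it fell most among the tested genes of the group. It was read at 216, 185, 224 and 219 normalized counts in DMSO, the most even DMSO values of the 10 genes (coefficient of variation 8.20%), and at 99.7, 51.0, 153 and 119 in MEKi. Every MEKi library lay under every DMSO library. The log2 fold change was -1.09 ± 0.24 (SE, adjusted p = 0.0086), which leaves 46.9% of the DMSO level with an interval of 0.32 to 0.70 times. The lines kept 46.1%, 27.5%, 68.3% and 54.6% of their DMSO level in the order #1, #3, #5 and #10. The fall passed in all 14 alternatives, with adjusted p-values of 0.0048 to 0.039, as did that of Rnaseh2b, with 0.0017 to 0.022. The 250 bases before the transcription start of the gene (chr9:78443238-78443487 of GRCm38.p6, minus strand) are printed to show its E2F matches, and no promoter activity was measured. The matches, on the reverse strand, are in capitals at positions -162 to -155 and -117 to -110 from the start.
cGAS gene: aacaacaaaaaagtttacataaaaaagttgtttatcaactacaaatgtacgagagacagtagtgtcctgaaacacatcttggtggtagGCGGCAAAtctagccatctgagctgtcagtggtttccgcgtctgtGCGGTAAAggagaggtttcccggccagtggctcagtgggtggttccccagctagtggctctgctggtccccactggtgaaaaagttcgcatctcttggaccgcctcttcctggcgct
The window held no ISRE and no GAS motif as spelled above. Samhd1 and Adar held 1 GAS match each, Eif2ak2 held 1 at positions -178 to -170 beside its ISRE, and none of the 6 genes examined held the ETS motif CCGGAAG, which 8.86% of all windows held. No match says only that these letters are not in the window.

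**Figure D2:**
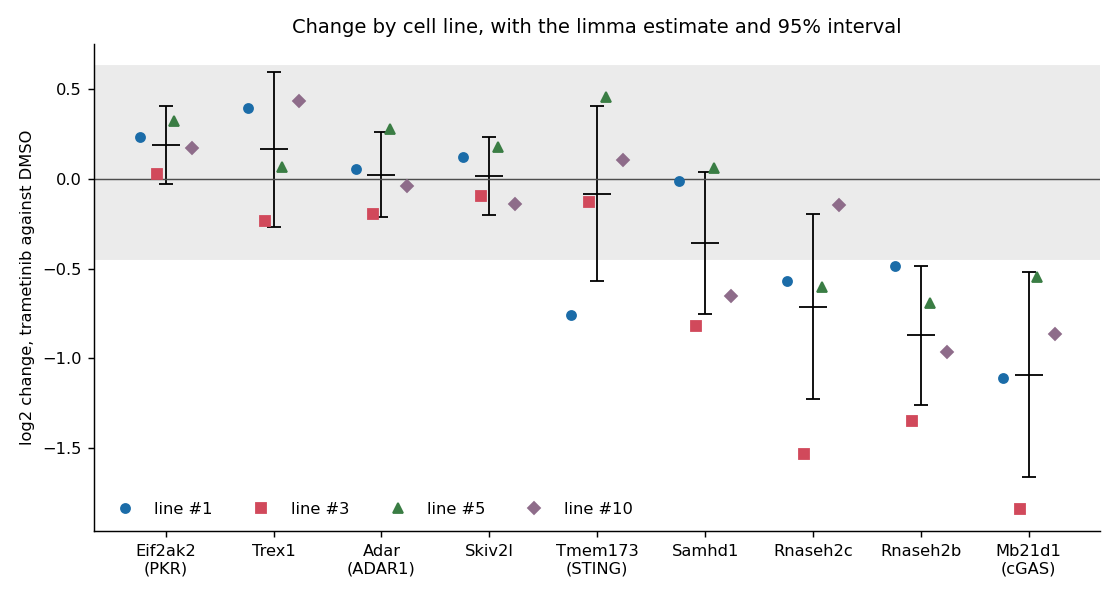
Log2 change of trametinib against DMSO, on the log2(normalized count + 1) scale, for the 9 tested genes, with a point for each cell line, a black bar for the limma estimate with its 95% interval and a grey band for the middle 50% of all genes tested (-0.45 to 0.63). The intervals of Rnaseh2c, Rnaseh2b and Mb21d1 (cGAS) lie below 0. Line #3 has the lowest point for 7 of the 9 genes, and the share of all genes tested with their lowest change in this line was not computed.

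Line #3 gave the lowest change of the 4 lines for 7 of the 10 genes, namely Adar, Eif2ak2, Samhd1, Trex1, Rnaseh2b, Rnaseh2c and the cGAS gene. How large a share of all genes tested had its lowest change in line #3 was not computed. The count is thus not shown to be particular to these genes. Over all genes tested, the median log2 change was 0.054, 0.063, 0.034 and 0.040 in lines #1, #3, #5 and #10. The genes of dNTP supply and of the kinases that phosphorylate SAMHD1, most of them tied to S phase, also fell furthest there, with a median log2 change of -2.32 in line #3 against -1.24, -1.05 and -1.31 in lines #1, #5 and #10. The summed epithelial markers were lowest and the endothelial ones highest in the MEKi library of line #3. Whether the falls of the guards in line #3 go with any of these was not tested. Without line #3 the log2 fold changes of Rnaseh2b, Rnaseh2c and the cGAS gene kept their direction, with that of Rnaseh2c at -0.44, the nearest to 0 when any line was left out.

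The STING gene (chr18:35733679-35740554, minus strand) encodes the adaptor that receives cGAMP and passes the signal to TBK1 and IRF3, and its level differed more between cell lines than that of any other tested gene of the group. Normalized counts were 244, 2238, 320 and 142 in DMSO and 144, 2044, 440 and 153 in MEKi, for lines #1, #3, #5 and #10. Line #3 stood 6.99-fold above the next highest line in DMSO and 4.65-fold in MEKi, and 15.8-fold above the lowest line in DMSO. The differences of the STING gene between MEKi and DMSO went both ways, from a log2 change of -0.76 in line #1 to 0.46 in line #5. Those of single lines were not tested, and the log2 fold change of -0.08 ± 0.20 (SE) did not pass (adjusted p = 0.76, interval -0.57 to 0.41). Line #3, with the highest STING gene, had the lowest cGAS gene after trametinib, at 51.0 normalized counts, which is a description of 1 line.

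Lists of the genes that work with these guards and sensors held 91 genes, of which 87 were tested, 15 rose, 43 fell and 29 did not pass, with a median log2 fold change of -0.31 against 0.07 for all genes tested. These are 17.2% higher and 49.4% lower, against 27.3% and 25.6% of all genes tested, shares that also stand behind the counts of each list below. In the RNA editing and PKR arm, 2 of 13 genes rose and 4 fell (median 0.10), and 30.8% lower is near the share of all genes. Eif2ak3, which encodes PERK, the eIF2alpha kinase of the unfolded protein response, rose from 1042 ± 254 to 4651 ± 1525 normalized counts (log2 fold change 2.12, adjusted p = 9.7e-05), and Ppp1r15a, the stress-induced subunit that reverses eIF2alpha phosphorylation, rose by 0.71 (adjusted p = 0.0024). Among the genes that fell were the double-stranded RNA-binding genes Tarbp2 (-0.59) and Dhx9 (-0.56) and the constitutive subunit gene Ppp1r15b (-0.46). Adarb1, the gene of the editing enzyme ADAR2, differed between lines more than between treatments, at 70.7 to 421 in DMSO and 126 to 370.0 in MEKi (0.33, adjusted p = 0.20).

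Of 6 genes that act with ZBP1 in cell death, none rose and 4 fell, with a median of -0.48. These were the necroptosis genes Mlkl (-0.78, adjusted p = 0.0021) and Ripk3 (-0.52, adjusted p = 0.014), the adaptor gene Fadd (-0.61, adjusted p = 0.017) and the protease gene Casp8 (-0.43, adjusted p = 0.0059). Ripk1 gave -0.01 (adjusted p = 0.93). Ripk3 was read at 61.2 and 96.4 normalized counts in line #1, against 305 or more in the libraries of the other lines.

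Of 5 genes that remove ribonucleotides from DNA with or beside RNase H2, 4 fell and none rose (median -0.66), namely Lig1 (-1.38), Fen1 (-1.12), Rnaseh2a and Top1 (-0.59). Rnaseh1, which removes RNA:DNA hybrids, gave -0.27 (adjusted p = 0.078, lower in 4 of 4 lines) and passed with quantile normalization and when each library was centred on its median. Of the 10 genes of dNTP supply and SAMHD1 phosphorylation, 9 fell and none rose, with a median of -1.51. The thymidine kinase gene Tk1 (-2.16), the dUTPase gene Dut (-1.95), the ribonucleotide reductase gene Rrm2 (-1.78) and the thymidylate synthase gene Tyms (-1.63) fell most, and Rrm2b, the p53-induced form of the reductase subunit, gave 0.20 (adjusted p = 0.18) and passed with libraries rescaled to equal totals.

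Of 9 other DNase genes, 7 were tested, 4 rose and none fell, with a median of 0.75. Dnase1 and Dnase1l3 reached the filter only through MEKi, so the count and the median rest in part on genes that their change let in. The median is the value of Dnase1l3, which did not pass and whose changes ran from -0.97 to 3.00. Pld3, which encodes a lysosomal exonuclease, rose from 798 ± 143 to 3682 ± 1504 normalized counts (log2 fold change 2.15, adjusted p = 0.00032), and Dnase2a, which encodes the lysosomal DNase II, rose from 743 ± 188 to 1361 ± 413 (0.86, adjusted p = 0.0017). Dnase1l1 rose by 0.61 (adjusted p = 0.021) on the log2 scale. Dnase1, which encodes a secreted DNase, passed as higher at low levels, 0 to 13.7 normalized counts in DMSO and 13.0 to 55.4 in MEKi (2.52, adjusted p = 0.0046). With means of 5.78 in DMSO and 28.7 in MEKi, Dnase1 reached the filter at a mean of 10 only through MEKi. Its call thus rests on a filter that the change itself met. Trex2, the relative of Trex1, was read at 2.49 normalized counts at most and was not tested.

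Of 20 tested genes of the Ski complex, the exosome and related RNA decay, 15 fell and 2 rose, with a median of -0.58. The exosome genes Exosc8 (-1.50), Exosc2 (-1.43), Dis3 (-1.20) and Exosc7 (-1.11) fell most. Xrn1, the gene of the cytosolic 5' exonuclease, was among those that rose (0.43, adjusted p = 0.0085).

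Of 21 tested partners of cGAS and STING, 4 rose, 6 fell and 11 did not pass (median 0.21), and 19.0% higher and 28.6% lower are near the shares of all genes. Ifi205, which did not pass, had means of 7.68 in DMSO and 19.1 in MEKi and reached the filter only through MEKi. The median of this list thus rests in part on a gene that its change let in. Trim56, a ubiquitin ligase gene of the pathway (1.26, adjusted p = 0.0011), Stim1, which encodes a calcium sensor that retains STING in the endoplasmic reticulum (1.08, adjusted p = 0.0018), the kinase gene Ikbke (0.58, adjusted p = 0.012) and Lrrc8a, of a cGAMP-conducting channel (0.42, adjusted p = 0.014), rose. Slc19a1, which encodes a folate carrier that also takes up cyclic dinucleotides (-1.53), Banf1, which encodes a chromatin protein that keeps cGAS off nuclear DNA (-1.15), and the interferon-inducible DNA-binding genes Ifi203 (-1.18) and Mndal (-0.997, lower in 3 of 4 lines) fell, the latter in only 7 of 14 alternatives. Tbk1 (0.25, adjusted p = 0.052) and Irf3 (0.21, adjusted p = 0.11), the kinase and transcription factor genes after STING, were higher in 4 of 4 lines and did not pass. Both passed with libraries rescaled to equal totals, and Tbk1 also with quantile normalization and with a filter at a mean of 50. Ifnb1, the gene of interferon beta, was listed at 0 in all 8 libraries. Of 5 RNA sensor genes, Ddx58 (RIG-I; 1.94, adjusted p = 0.00034), Ifih1 (MDA5; 1.92, adjusted p = 0.0014) and Tlr3 (1.02, adjusted p = 0.0017) rose, Dhx58 (LGP2) fell (-1.01, adjusted p = 0.011), and the adaptor gene Mavs gave -0.20 (adjusted p = 0.13), passing only when each library was centred on its median.

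**Figure D3:**
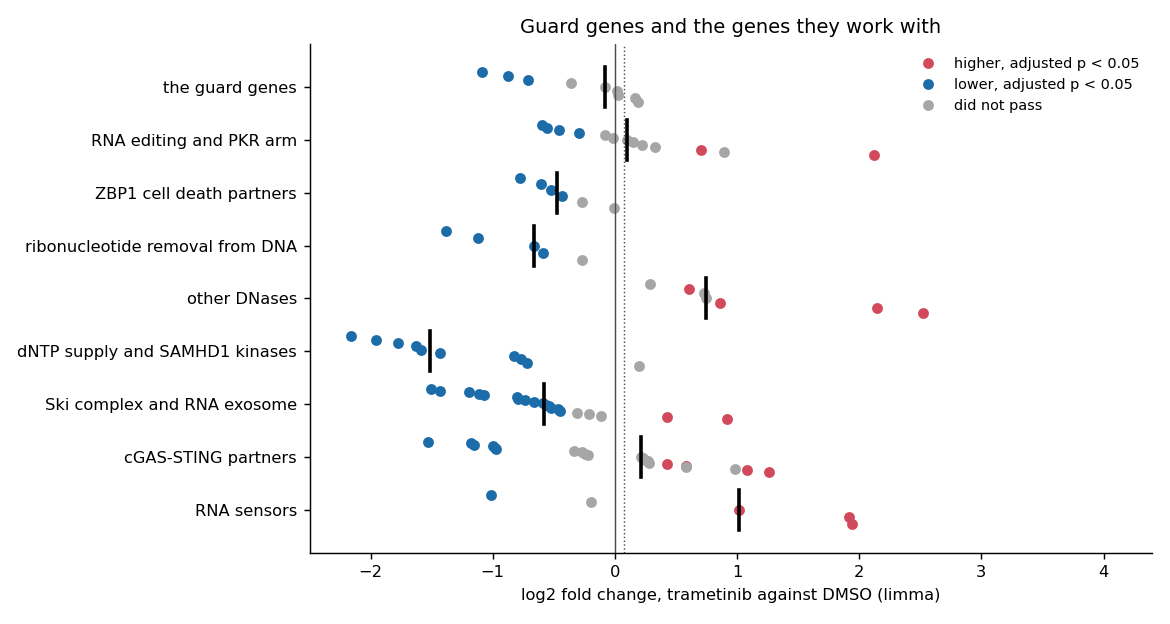
Limma log2 fold changes of trametinib against DMSO for the tested guard genes and the genes of each list, a point per gene, with those past an adjusted p of 0.05 in red (higher) or blue (lower), the rest in grey, a black bar for the list median and a dotted line for the median of all genes tested (0.07). The dNTP list lies furthest to the left, with 9 of 10 genes lower, and the other DNases and the RNA sensors have medians of 0.75 and 1.02. The DNase median is the value of Dnase1l3, which reached the filter only through MEKi.

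The change of a sensor was then set against that of a guard acting on the same nucleic acid, in 5 pairs. Ifih1 moved above Adar in every line, by 1.89 ± 0.51 on the log2 scale (SD, n = 4 lines), with 1.15 in line #3 as the lowest difference. Ddx58 moved above Skiv2l by 1.92 ± 0.34, in 4 of 4 lines. In both pairs the sensor gene had passed as higher and the guard had not passed. The cGAS gene, which had passed as lower, moved below Trex1, which had not passed, in 4 of 4 lines, by -1.26 ± 0.45. The differences of these 3 pairs mainly restate the changes of the sensor genes and add no separate support. These 3 pairs reached p = 0.125 in the exact sign-flip permutation test, two-sided, the smallest that 4 lines allow, and 0.21 after Benjamini-Hochberg adjustment over the 5 pairs, so this exact test could not pass 0.05 with 4 lines. For the cGAS gene and Rnaseh2b the difference was -0.22 ± 0.40 (exact p = 0.50, adjusted 0.63) and lay above 0 in 2 of 4 lines, and for Zbp1 and Adar it was -0.20 ± 1.68 (exact p = 0.75), which rests on the few reads of Zbp1. A p at this size of design does not show that the genes of these pairs moved alike.

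Levels of different genes were compared per kb of annotated exon. In DMSO, Skiv2l was highest at 837 ± 161 normalized counts per kb (SD, n = 4 lines), followed by Rnaseh2c at 620.1 ± 52.8, Adar at 465 ± 59.3, Samhd1 at 365 ± 97.5, Eif2ak2 at 278 ± 77.3, the STING gene at 269 ± 366, Trex1 at 139 (94.9 to 161), Rnaseh2b at 113 ± 13.4, the cGAS gene at 51.1 ± 4.20 and Zbp1 at 2.53 ± 2.77. The place of the STING gene rests on line #3, since its mean was 85.9 ± 32.7 over the other 3 lines, below those of Trex1 and Rnaseh2b over the 4 lines, and it stood above Trex1 in 1 of 4 lines. From Adar down to Rnaseh2b the ranges of neighbors overlapped, so their order is not settled beyond the spread of the lines, whereas the steps from Skiv2l to Rnaseh2c to Adar and from Rnaseh2b to the cGAS gene to Zbp1 had no overlap. In MEKi, Adar at 470.2 ± 17.5 stood above Rnaseh2c at 406 ± 156 with overlapping ranges, and Rnaseh2b was at 63.1 ± 16.9 and the cGAS gene at 25.6 ± 10.3. The guards that limit the substrates of cGAS were thus read at higher levels per length than the sensor itself under both treatments.

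**Figure D4:**
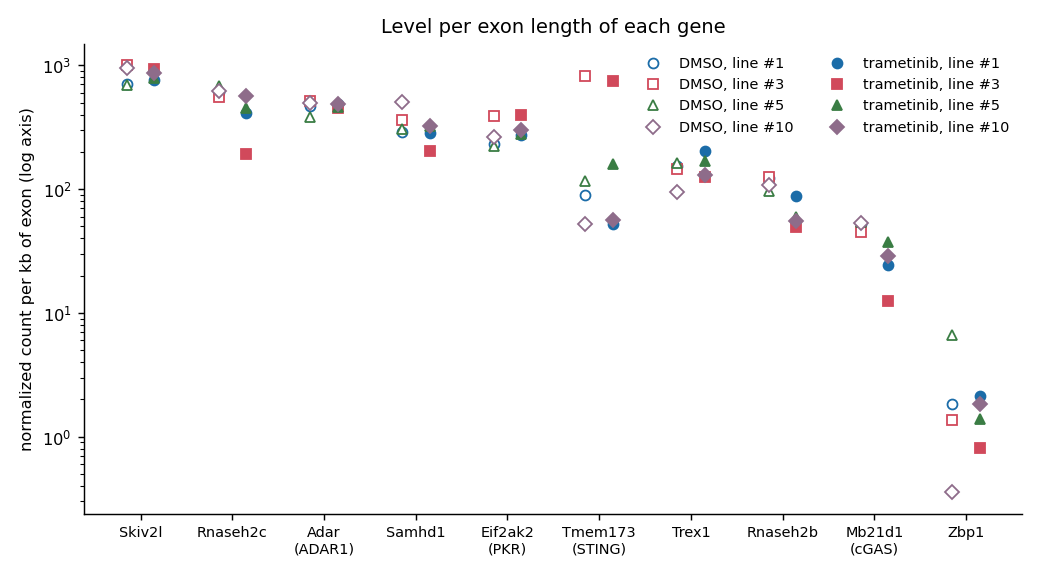
Normalized counts per kb of annotated exon (log axis) of each gene, in order of the DMSO mean, with open symbols for DMSO, filled symbols for trametinib and a symbol shape and color for each cell line. Skiv2l lies highest and Zbp1 lowest in every library, and the STING gene in line #3 lies apart from its other lines.

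For each tested gene, the gene with the most similar pattern over the 8 libraries was found by Pearson's r on log2(normalized count + 1). These were Prr11 for the cGAS gene (r = 0.995), Ift27 for Samhd1 (0.996), Dph5 for Rnaseh2c (0.98), Slc25a15 for Rnaseh2b (0.98), Tti2 for Adar (0.99), 4933439C10Rik for Eif2ak2 (0.99), Lpl for the STING gene (0.99), Fkbp15 for Trex1 (0.97) and 6530401F13Rik for Skiv2l (0.97). They are the best of many genes over libraries that share cell lines, and describe these libraries only. Among the guards and sensors themselves, the cGAS gene was most like Rnaseh2c (r = 0.93) and Rnaseh2b most like the cGAS gene (0.76), while Trex1 was like none of them (0.05 with Rnaseh2b at most).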

How the data were processed

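RNA was measured in 8 libraries of 4 murine PDAC cell lines, with DMSO and trametinib for 48 h in each. The authors deposited normalized counts per gene symbol, a scaled signal and not raw reads. The submitters' processing notes name CASAVA 2.17, Salmon 0.12, DESeq2 1.18 and mm10 without their roles, and the normalization is not given in the sources used here. All 8 columns were used. Only 40.5% to 62.4% of values under 20 steps were whole multiples of the step between low values (tolerance 0.02 steps), so whole reads were not recovered and no count model was run.

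Values were taken as log2(value + 1), a scale that understates changes of low genes, and tested two-sided with limma 3.58.1 in R 4.3.3 (lmFit, eBayes with trend, cell line as a block) on 15888 genes, those whose mean normalized count reached 10. Benjamini-Hochberg adjustment ran over all of these, with a threshold of 0.05. The fit was tested on simulated data. The labels give both libraries of a line the same number, which names the cell line, and their deviations from the treatment means correlated at 0.63 to 0.72 across genes. The same cells thus pair the libraries. Differences between a sensor and a guard were tested with an exact sign-flip permutation test over the 4 lines. Gene positions and exon lengths are those of GENCODE M21 on GRCm38, and promoter sequences (250 bases before to 50 after a start) are those of RefSeq on GRCm38.p6. Python 3.11.15, numpy 2.4.6, pandas 2.3.3 and matplotlib 3.10.9 served for tables and plots.

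The genes described and the lists around them were chosen with earlier results of these data known. The named genes are the 10 guards and sensors, the partners Rnaseh2a, Ttc37, Wdr61 and Adarb1, the RNA sensors Ifih1 and Ddx58, Dusp6, up to 4 genes per direction and list with the largest change among those that passed, up to 2 genes of a list that did not pass, and the gene most like each guard. Genes that share exons with them, marker genes, and Adarb2 and Ifi205 were added after their values were seen. Some alleles and genes that fall under these rules are not reported here. Alternatives were other pseudocounts, scalings, filters and variance settings, no block, and leaving out each line in turn.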

Additional observations from a re-analysis of the deposited data

Results flagged for a closer look

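The STING gene Tmem173 of line #3 lay apart from the other lines under both treatments. It was read at 2238 normalized counts in DMSO, against 142 to 320 in the other lines, and at 2044 in MEKi, against 144 to 440. Its gap to the next line divided by the range of the group exceeded the 95% limit of Dixon's test for 4 samples in both cases. Of 30 groups of 4 examined, 2 gave such a value, and chance gives about 1.5.

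The log2 change of Zbp1 was 1.73 in line #10 and -2.04 in line #5. The difference between the lines was not tested, since each line has 1 library per treatment, and the value of line #10 rests on a DMSO library with fewer than 3 reads.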

How the results depend on the processing

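Of 254 values recomputed under the alternatives, 241 kept their side of the threshold or, for counts and sensor differences, moved by at most 1.5 times or by less than 1 SD between lines, and no called value reversed. The difference of Zbp1 and Adar ranged from -0.86 without line #10 to 0.50 without line #5 and was not computed with quantile normalization, and that of the cGAS gene and Rnaseh2b from -0.50 with quantile normalization to -0.08 without line #1. Without the replicate block for the cell line, 2205 genes were higher and 2347 lower over all genes, 8 of the genes in the wider lists were higher, and the log2 fold change of Rnaseh2c, -0.71, did not pass. In each of the 5 alternatives in which Rnaseh2c did not pass, 2 of the 10 genes were called lower and not 3. With libraries rescaled to equal totals 1 of the 10 genes was called higher, Eif2ak2 (0.32), and Rnaseh2c (-0.58) no longer passed, nor did it with eBayes without trend (-0.71). Centring each library on its median brought Samhd1 past the threshold (-0.42). Leaving out each line in turn gave 0 to 1 genes called higher, with Eif2ak2 between 0.15 and 0.24 (past the threshold without line #3) and Rnaseh2c between -0.90 and -0.44. The signs of Adar, Trex1, Skiv2l and Tmem173, which did not pass, changed under some settings, with log2 fold changes of -0.06 to 0.15, -0.20 to 0.30, -0.04 to 0.14 and -0.27 to 0.14. Equal totals moved the median of all genes by 0.13, quantile normalization by -0.10 and centring by -0.06. Of 40 genes that the rule took from the wider lists, 26 passed in every alternative, 14 did not pass without the block and none changed sign. Without single lines, calls were lost, among others, for Ripk3 (#5, adjusted p up to 0.065), Fadd (#5 or #10, 0.074), Lrrc8a (#5 or #10, 0.053), Dnase1l1 (#1, #5 or #10, 0.087) and Mndal (#1, #3 or #5, 0.15). Mndal also lost its call with equal totals, without the filter, without the block and without trend (adjusted p up to 0.32). The cause of these differences was not tested. The depth limits Zbp1, at 1.3 to 18.7 reads, and Dnase1.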
